A study of Mus musculus with 9 samples.

Results

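The 42 genes described here are listed cell division genes, chosen by name from the 18138 genes of a mouse brain count table and not by any measured value. They cover the entry into the cell cycle, the copying of DNA and mitosis, and all 42 had enough counts to be tested. Bulk RNA of mouse brain was sequenced in 3 groups of 3 libraries. The hypidone group had surgery for MCAO, the occlusion of the middle cerebral artery that models ischaemic stroke, and after it hypidone hydrochloride (YL-0919) at 5 mg/kg over 7 days. The MCAO group had that surgery and is not labelled with a drug, and the remaining group is labelled only as control. The labels name no strain, age, sex, brain region, hemisphere, sham surgery, vehicle or time after the occlusion. Nor do they tie the libraries of a group to different animals, and the p-values therefore reflect a spread between samples that may be technical only. Libraries carry the numbers in their titles, and values of a group are given in the order of those numbers: 2, 7 and 8 for hypidone, 4, 5 and 6 for MCAO, and 4, 5 and 6 for control.

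A cell enters the cycle when D-type cyclins activate Cdk4 and Cdk6, which release E2F transcription factors from their inhibitors, and cyclin E with Cdk2 then starts S phase. The MCM proteins unwind DNA, Pcna holds the polymerases on it, and cyclins A and B with Cdk1 drive mitosis, which ends when the anaphase-promoting complex destroys the cyclins and the spindle midzone guides cytokinesis. Most neurons of the adult brain have left the cycle for good, while microglia, oligodendrocyte precursors, vascular cells, some astrocytes and invading leukocytes can divide, and ischaemic injury is known to bring on such division.

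The 42 genes took 11067 to 29920 counts of a library, out of totals between 32075682 in control 4 and 37325027 in MCAO 4. Libraries differed most within MCAO, where the biological coefficient of variation over all tested genes was 41.5%, against 14.5% within hypidone and 29.4% within control. Control 5 stood apart from control 4 and control 6: its summed CPM (counts scaled by library total and the trimmed mean of M-values) were 817 for a list of hippocampal neuron markers and 197 for choroid plexus markers. The other 8 libraries had 113 to 256 CPM and 2.31 to 16.7 CPM for those lists. Brain tissue was checked by 10 neuron markers, and none of them was at 0 in any library.

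Promoters of members are printed to show the sequence elements in which the role classes differ. Of the 42 genes, 33 had a window of 300 bases in RefSeq (GRCm38.p6), from 250 bases before the transcription start to 50 after it. Ccnd1, Ccnd2, Ccne2, Mcm4, Ccna2, Foxm1, Aurkb, Kif20a and Tpx2 had none. Kif23, Bub1b and Cdc20 are those with a window among the 4 called members of lowest adjusted p in MCAO against control, the other being Ccnd2. Mcm6 and Top2a are added to show a replication promoter and a mitotic promoter with many matches, and they were chosen after the matches were counted. Windows are chr9:61946750-61947049 on the minus strand for Kif23, chr2:118597961-118598260 on the plus strand for Bub1b, chr4:118437294-118437593 on the minus strand for Cdc20, chr1:128359656-128359955 on the minus strand for Mcm6 and chr11:99024140-99024439 on the minus strand for Top2a. Capitals mark E2F sites (TTTGGCGC, TTTCGCGC, TTTCCCGC or TTTGCCGC), cell cycle homology region (CHR) elements (TTTGAA or TTCGAA) and CCAAT boxes, each searched on both strands.
Kif23: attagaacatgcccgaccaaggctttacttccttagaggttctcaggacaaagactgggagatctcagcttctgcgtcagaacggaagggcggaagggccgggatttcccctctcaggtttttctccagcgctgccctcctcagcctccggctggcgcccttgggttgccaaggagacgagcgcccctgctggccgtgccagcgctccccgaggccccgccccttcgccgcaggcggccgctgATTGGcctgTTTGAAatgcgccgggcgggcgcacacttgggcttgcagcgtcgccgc
Bub1b: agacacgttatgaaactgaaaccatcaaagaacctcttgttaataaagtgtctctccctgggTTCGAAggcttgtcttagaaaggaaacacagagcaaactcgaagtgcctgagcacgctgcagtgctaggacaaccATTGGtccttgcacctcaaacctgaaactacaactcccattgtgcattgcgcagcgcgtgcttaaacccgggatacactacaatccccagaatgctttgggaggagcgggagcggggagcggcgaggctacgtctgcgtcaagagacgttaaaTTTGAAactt
Cdc20: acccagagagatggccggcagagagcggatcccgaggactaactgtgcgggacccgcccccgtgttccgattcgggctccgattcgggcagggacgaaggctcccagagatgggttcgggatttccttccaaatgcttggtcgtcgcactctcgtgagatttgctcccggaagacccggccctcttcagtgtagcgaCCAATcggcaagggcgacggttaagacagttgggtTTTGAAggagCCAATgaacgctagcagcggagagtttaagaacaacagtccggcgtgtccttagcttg
Mcm6: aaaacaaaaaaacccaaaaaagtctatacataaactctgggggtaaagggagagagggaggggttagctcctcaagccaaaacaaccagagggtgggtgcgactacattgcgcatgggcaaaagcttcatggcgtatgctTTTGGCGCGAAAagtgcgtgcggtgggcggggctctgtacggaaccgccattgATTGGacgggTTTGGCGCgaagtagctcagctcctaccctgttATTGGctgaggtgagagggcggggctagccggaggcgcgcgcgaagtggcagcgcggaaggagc
Top2a: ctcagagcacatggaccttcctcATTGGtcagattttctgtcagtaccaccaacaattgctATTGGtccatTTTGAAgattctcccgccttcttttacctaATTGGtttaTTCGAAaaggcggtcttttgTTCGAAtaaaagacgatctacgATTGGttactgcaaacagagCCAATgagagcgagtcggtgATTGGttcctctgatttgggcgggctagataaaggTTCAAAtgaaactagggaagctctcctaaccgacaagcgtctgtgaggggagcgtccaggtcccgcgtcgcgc
Kif23 had 1 CHR element and 1 CCAAT box, Bub1b 2 and 1, Cdc20 1 and 2, and Top2a 4 and 6, and none of these promoters had an E2F site. Mcm6 had 3 E2F sites, of which 2 on opposite strands overlap, 2 CCAAT boxes and no CHR element.

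Among the 17 mitotic members with a window, a CHR element stood in 14 promoters (82.4%), against 2 of 16 (12.5%) among members of G1 and S phase and 21.7% of 27025 genes. CCAAT boxes stood in 16 of the 17 (94.1%), against 11 of 16 (68.8%) and 41.1%. E2F sites had the other order: 1 of 17 (5.88%), against 5 of 16 (31.2%) and 2.6%. Mitotic members are here the 22 genes of the cyclin A and B, mitotic chromosome, mitotic kinase and spindle classes, and the other 20 are those of G1 and S phase. A match describes letters in the window and does not show that a factor binds there.

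Per length, the mitotic genes were low outside MCAO. In FPKM, which scales counts by gene length and library total, all 22 averaged under 1 in hypidone, from 0.0476 (Cenpf) to 0.977 (Tpx2), and in control, from 0.0222 (Bub1) to 0.724 (Tpx2). Only 4 of the 22 averaged under 1 FPKM in the MCAO group, where the highest mean was 4.05 ± 5.21 (SD, n = 3) for Ube2c. The count of mitotic genes at 1 FPKM or over was 0 in MCAO 4, 19 in MCAO 5 and 11 in MCAO 6. Means of the G1 and S phase genes began at 0.211 FPKM in hypidone, 0.382 FPKM in MCAO and 0.149 FPKM in control. They reached 38.6 ± 2.23 FPKM in hypidone, 50.05 ± 11.3 FPKM in MCAO and 36.5 ± 1.68 FPKM in control (SD, n = 3 each) for Pcna, the sliding clamp of DNA polymerases.

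The 3 MCAO libraries did not share a level of the mitotic genes. Their summed CPM was 23.5, 29.2 and 14.8 in hypidone, 16.2, 255 and 67.9 in MCAO and 10.5, 24.6 and 12.3 in control. All 22 mitotic genes were highest in MCAO 5, next in MCAO 6 and lowest of the group in MCAO 4. MCAO 4 lay above every library of the other groups for 4 of the 22 and was the lowest of all 9 libraries for 7. Those 7 genes had only 0 to 11 counts in MCAO 4. Over the 42 genes, MCAO 5 was the highest of all 9 libraries for 37, against 25.6% of all tested genes, and the order MCAO 5, 6, 4 held for 34, against 30.2%. MCAO 4 fell within the control range for 18 members, below it for 12 and above it for 12, and 32.5% of all tested genes fell within that range there. Control 5 was the highest control for 32 of 42, against 39.9% of all tested genes. Hypidone 8 was the lowest of its group for 18 of the 22 mitotic genes. The share of all tested genes was not counted for this, nor for the counts of 4 and 7 in MCAO 4.

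Markers of several cell types had the same order across the MCAO libraries. Of all tested genes, 10.6% were called higher in MCAO than in control and 9.81% lower. In hypidone against MCAO, 8.28% of them were called lower and 8.23% higher. Counts of 1 of 10 here and in the next paragraph are near these shares. Macrophage markers summed to 34.6 to 119 CPM in hypidone, 29.6, 1778 and 177 CPM in MCAO and 16.7 to 21.6 CPM in control, and 4 of 9 tested were called higher in MCAO than in control and 1 lower in hypidone than in MCAO. Of the macrophage markers, Ccr2 was at 0 in control 4 and Arg1 in control 6, and none was at 0 in MCAO. Microglia markers summed to 512 to 612 CPM in hypidone, 506, 1598 and 833 CPM in MCAO and 476 to 515 CPM in control, with 2 of 10 called higher in MCAO than in control, and 2 lower and 1 higher in hypidone than in MCAO. Fibroblast and pericyte markers summed to 333 to 847 CPM in hypidone, 278, 2205 and 422 CPM in MCAO and 278 to 349 CPM in control, with 1 of 10 called higher in MCAO than in control and 1 lower in hypidone than in MCAO. For all 3 lists MCAO 5 was the highest and MCAO 4 the lowest library of the group, as for the mitotic genes.

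Endothelial markers (268 to 331 CPM in hypidone, 263, 656 and 377 in MCAO, 188 to 329 in control) and oligodendrocyte precursor markers (404 to 481 CPM in hypidone, 390, 652 and 590 in MCAO, 389 to 595 in control) had the same order. In MCAO against control 3 of 10 and 1 of 10 of them were called higher, against 10.6% of all tested genes. In hypidone against MCAO 1 of 10 of each list was called lower, against 8.28% of all tested genes. Reactive astrocyte markers summed to 398 to 658 CPM in hypidone, 746, 4795 and 4578 CPM in MCAO and 194 to 800 CPM in control, with 9 of 10 called higher in MCAO than in control and 8 of 10 lower in hypidone than in MCAO. MCAO 5 and 6 were nearly level for them, and MCAO 4 lay within the control range, whose top was control 5. General astrocyte markers had another order, with MCAO 6 the highest of its group. They summed to 5213 to 6095 CPM in hypidone, 5044, 5176 and 6729 CPM in MCAO and 5157 to 5897 CPM in control. Of 8 tested, 0 were called in any comparison. Neutrophil markers summed to 11.0 to 18.4 CPM in hypidone, 8.73, 33.6 and 12.8 CPM in MCAO and 5.17 to 7.75 CPM in control, with Ly6g at 0 in every MCAO library. Of the 5 neutrophil markers tested, 1 (S100a8) was called higher in MCAO than in control, against 10.6% of all tested genes. Without overlap 3 were higher there, against 16.5% of all tested genes, and 0 were called in hypidone against MCAO. Neuron markers ran the other way, with 13079 to 14064 CPM in hypidone, 12979, 6947 and 9694 CPM in MCAO and 10222 to 14630 CPM in control, and so did neural stem cell and neuroblast markers, with 452 to 506 CPM in hypidone, 353, 221 and 286 CPM in MCAO and 370 to 505 CPM in control. Of 10 neuron markers 0 were called in MCAO against control and 1 higher in hypidone than in MCAO, and of 8 stem cell and neuroblast markers 1 was lower in MCAO than in control and 2 higher in hypidone than in MCAO. Erythrocyte markers summed to 71.3, 184 and 187 CPM in hypidone, 7.11, 28.03 and 4.31 CPM in MCAO and 46.2, 41.9 and 72.8 CPM in control. All 5 were called higher in hypidone than in MCAO, by log2 fold changes of 3.23 to 3.67, and 0 were called in MCAO against control. T cell markers summed to at most 1.505 CPM in any library, and 4 of the 6 in the table were at 0 in MCAO 4 (Cd3e, Cd3d, Cd3g and Cd2), 1 in MCAO 5 (Cd3d) and 3 in MCAO 6 (Cd3g, Cd2 and Cd8a). The part of these cell types in the results on the division genes that follow was not tested.

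**Figure D1:**
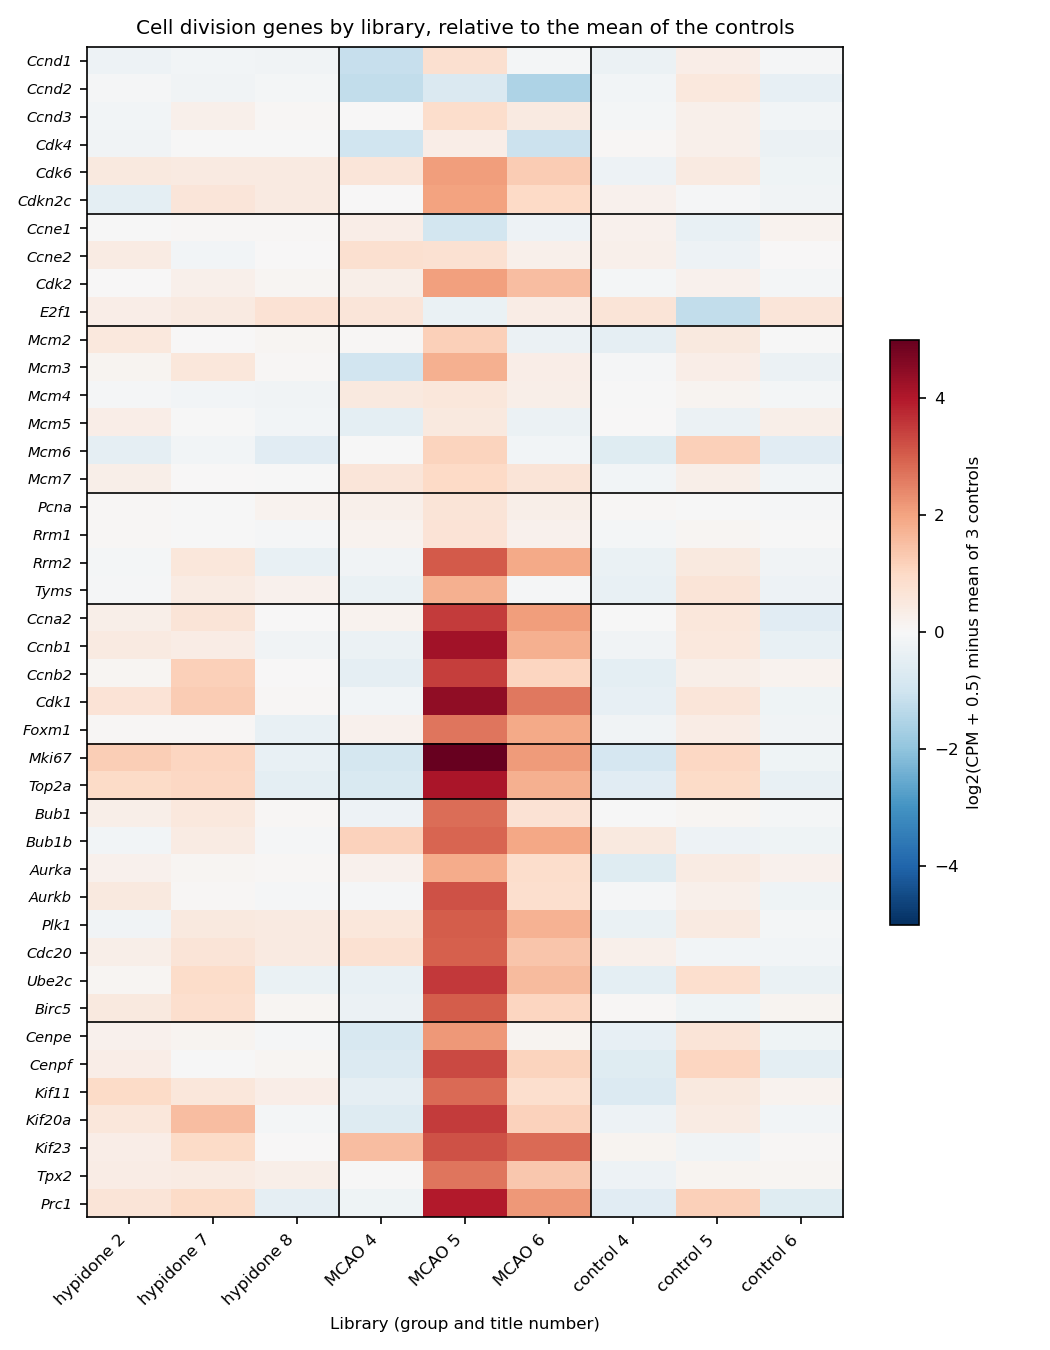
Level of each of the 42 cell division genes in each library, as log2(CPM + 0.5) minus the mean of the 3 control libraries; columns are libraries by group (hypidone, MCAO, control), rows are genes with lines between role classes, and red is above and blue below the controls. The mitotic genes in the lower rows are deep red in MCAO 5 and paler in MCAO 6, MCAO 4 is near the controls for most of them, and Kif23, Bub1b and Cdc20 are red in all 3 MCAO libraries.

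**Figure D2:**
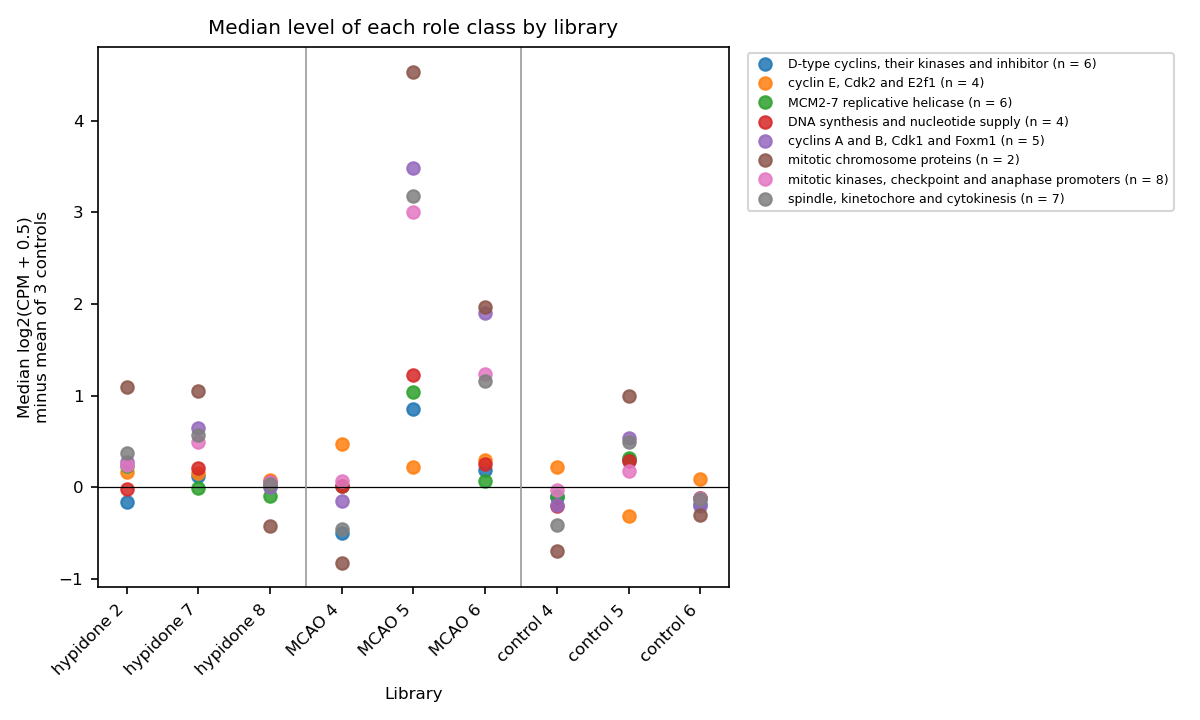
Median of each role class in each library, as log2(CPM + 0.5) minus the mean of the 3 control libraries, with 1 point per class and libraries ordered by group. The 4 mitotic classes reach medians of 3.00 to 4.54 in MCAO 5 and 1.16 to 1.96 in MCAO 6, while in MCAO 4 they lie between -0.82 and 0.07.

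MCAO against control asks which division genes changed with the occlusion. Of the 22 mitotic genes 6 rose, namely Kif23 (3.52 ± 0.58, log2 fold change ± SE), Bub1b (2.70 ± 0.58), Cdc20 (2.64 ± 0.64), Plk1 (2.84 ± 0.77), Ccna2 (2.88 ± 0.85) and Foxm1 (2.26 ± 0.62). Cdk2 (1.70 ± 0.45), Cdk6 (1.64 ± 0.43) and Mcm7 (0.76 ± 0.20) rose too, and the cyclin D2 gene Ccnd2 fell by 1.18 ± 0.27. By edgeR's quasi-likelihood test, adjusted by Benjamini-Hochberg over all tested genes, 9 of 42 were called higher and 1 lower at the 0.05 threshold, where 10.6% of all 14756 tested genes were called higher and 9.81% lower. The median log2 fold change of the 42 was 1.82, against 0.01 over all tested genes, and 38 of the 42 were positive. Without the MCAO libraries 40 of the 42 would have passed the filter on low counts. Bub1 and Aurkb, both positive and not called, were tested through the group in which they were high. The libraries of the groups did not overlap for 11 genes that were higher and 1 that was lower, against 16.5% and 17% of all tested genes. Of the 42, 28 were higher with an unadjusted p under 0.05, against 19.2% of all tested genes. With 1 library left out that count ran from 12 (without MCAO 5) to 32 (without MCAO 4). It was 15 without control 6 and 16 without control 4. The share of all tested genes at that p is not given for those fits. In bulk RNA, a change in the number of dividing cells and a change in RNA per cell cannot be told apart.

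The count moved with the tool and with single libraries, and so did the share of all tested genes. DESeq2 called 25 higher and 1 lower, where it called 16.1% and 14.2% of all tested genes. A fit of the MCAO and control libraries alone, in which 40 of the 42 passed the filter, called 1 higher and 0 lower, against 2.38% and 2.33%. Without MCAO 4 it was 27 higher and 1 lower, against 15.7% and 12.8% of all tested genes. Leaving out MCAO 5 gave 4 and 2, against 11.9% and 11.6%, so that the members' share called higher was then below that of all tested genes. It was 3 and 0 without MCAO 6, against 4.8% and 3.98%. Without control 4 it was 2 and 1 (3.61% and 4.65% of all tested genes), without control 5 it was 8 and 1 (9.12% and 10.3%), and without control 6 it was 1 and 1 (3.19% and 4.07%). Through the shared spread it was 5 and 1 without hypidone 2, 3 and 1 without hypidone 7 and 4 and 1 without hypidone 8, where 6.4% to 7.17% of all tested genes were called higher and 6.29% to 6.7% lower. The median log2 fold change of the 42 was 2.23 without MCAO 4 and 0.82 without MCAO 5, where 33 of the 42 were positive. Ccnd1, Ccne1, Mcm2, Mcm3, Mcm6, Tyms and Cenpe, none of them called, had the opposite sign without MCAO 5.

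Hypidone against MCAO asks whether these genes differed in the drug-treated group. Lower in hypidone than in MCAO were Kif23 (-2.69 ± 0.55, log2 fold change ± SE), Bub1b (-2.61 ± 0.58), Foxm1 (-2.39 ± 0.63), Cdk2 (-1.56 ± 0.45), Mcm7 (-0.67 ± 0.20) and Mcm4 (-0.62 ± 0.15), and Ccnd2 rose (1.01 ± 0.26). Thus 6 of the 42 were called lower and 1 higher in the same test, where 8.28% of all tested genes were called lower and 8.23% higher. The median log2 fold change was -1.40, against -0.04 over all tested genes, and 12 genes were lower and 1 higher without overlap of the libraries, against 19% and 20.9% of all tested genes. This comparison uses the same 3 MCAO libraries as the one with control, so changes of opposite sign in the 2 are not independent. DESeq2 called 16 lower and 1 higher, against 14.7% and 12.5% of all tested genes, and a fit of these groups alone called 3 lower and 1 higher, against 6.66% and 7.21%. The counts lower and higher were 23 and 0 without MCAO 4, against 14.1% and 11.7% of all tested genes. Without MCAO 5 they were 3 and 2, against 10.7% and 10.9%, so that the members' share called lower was then below that of all tested genes. They were 0 and 0 without MCAO 6, hypidone 2 or hypidone 8 and 1 and 0 without hypidone 7, where 1.55% to 2.28% of all tested genes were called lower and 2.1% to 2.6% higher. They were 3 and 1 without control 4 (5.97% and 6.23%), 7 and 1 without control 5 (10.3% and 10.8%) and 3 and 1 without control 6 (5.43% and 5.76%). The median was -1.86 without MCAO 4 and -0.48 without MCAO 5, where the members with a positive log2 fold change numbered 11, against 5 with all libraries.

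Hypidone against control gave 0 calls among the 42 genes in either direction in edgeR's quasi-likelihood test, and 0% of all tested genes were called. None of the 42 had an unadjusted p under 0.05, where 59 of all tested genes (0.4%) were higher and 72 (0.488%) lower at that p. The spread in that test was shared with the MCAO group, the most variable of the groups. With so few genes under that p, 0 calls do not show that levels were equal to those of control. DESeq2 called 0 of the 42, and limma voom with quality weights called 0 with 1 at an unadjusted p under 0.05. The log2 fold changes ran from -0.68 ± 0.54 for Mcm6 to 1.45 ± 1.39 for Cdk1 with a median of 0.24, and the SE reached 1.46 for Bub1, so that differences of several fold were not detectable for the lowest genes. Cdc20 and Tpx2 were higher in all 3 hypidone libraries than in all 3 controls, against 3.86% of all tested genes that were higher without overlap and 2.71% that were lower. Their log2 fold changes of 0.72 ± 0.62 and 0.42 ± 0.59 did not pass the test.

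**Figure D3:**
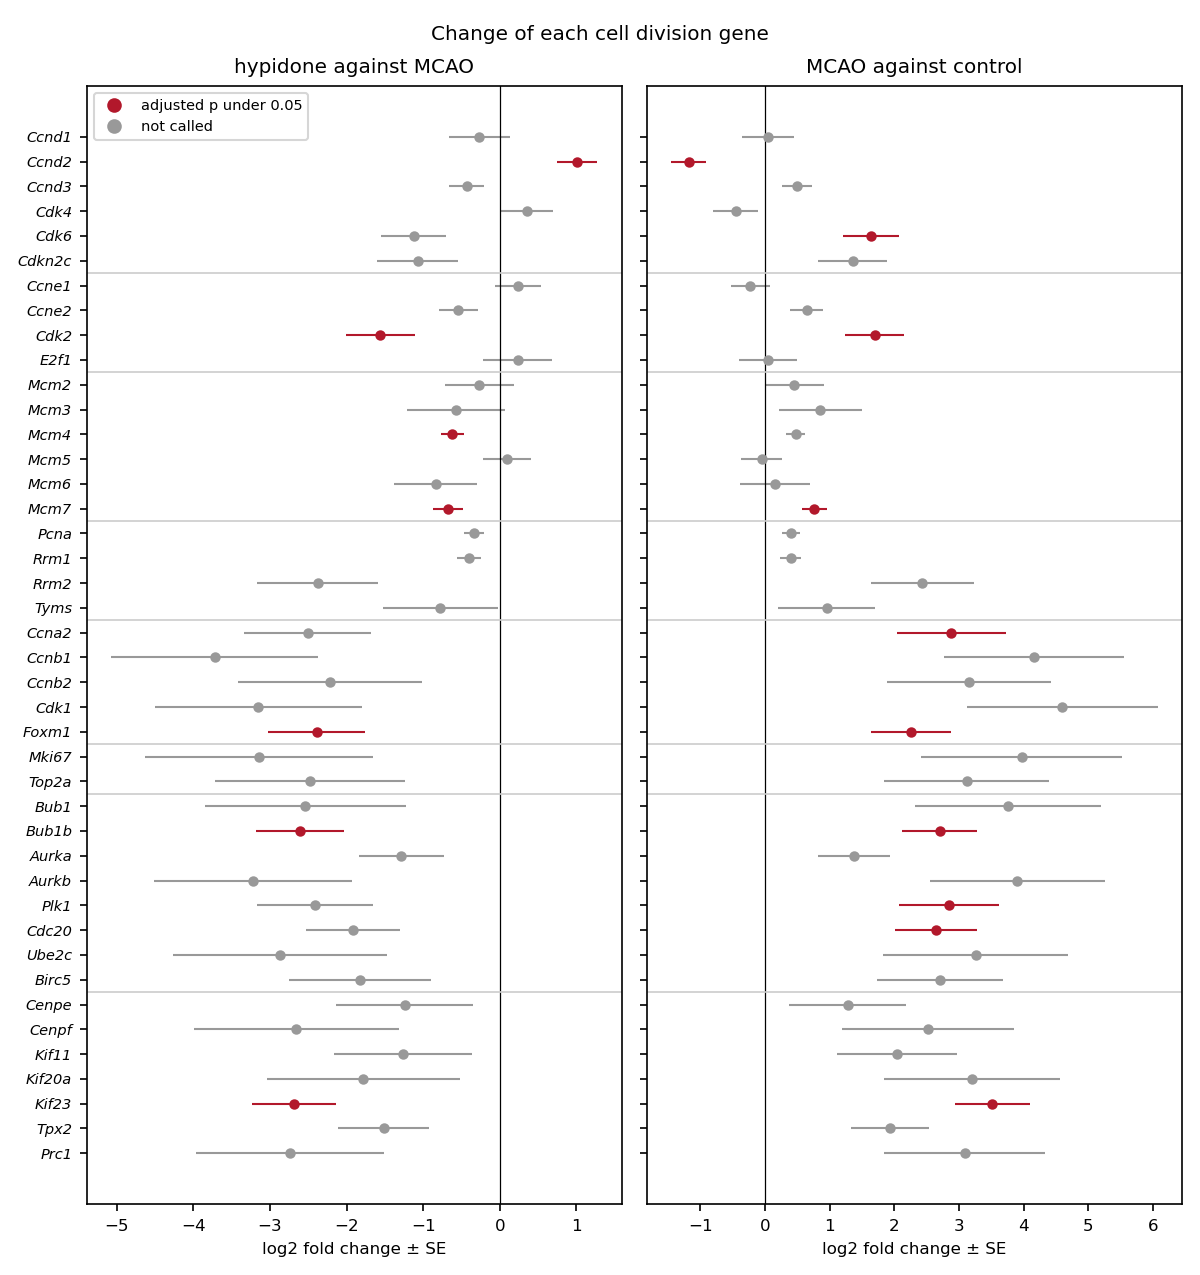
Log2 fold change with its SE for each of the 42 genes in hypidone against MCAO (left) and MCAO against control (right), with red points for an adjusted p under 0.05 and grey points for genes not called. Error bars of the mitotic genes in the lower rows are wide, up to 1.56 in MCAO against control, and Ccnd2 is the 1 called gene that is lower in MCAO than in control and higher in hypidone than in MCAO.

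Of the genes that act first in the cycle, Ccnd2 fell in MCAO and Cdk6 rose. Ccnd2, which encodes cyclin D2 (chromosome 6, 127125162 to 127152193 in mm10), was at 73.4, 68.6 and 71.6 CPM in hypidone, 32.4, 47.1 and 26.3 CPM in MCAO and 70.3, 111 and 58.7 CPM in control. Every MCAO library lay below every library of both other groups. Its fall in MCAO had an adjusted p of 0.0177, and its rise with hypidone 0.0332. The fall was lost without MCAO 6 (adjusted p = 0.0632), and the rise was lost without MCAO 4, MCAO 6 or any hypidone library (adjusted p between 0.0534 and 0.111). Cdk6, a kinase partner of the D-type cyclins, was at 2.65, 2.60 and 2.55 CPM in hypidone, 2.96, 9.01 and 5.03 CPM in MCAO and 1.41, 2.58 and 1.47 CPM in control. All MCAO values were above all others, although MCAO 4 was close to hypidone 2 and control 5. It rose in MCAO (adjusted p = 0.0302) by a log2 fold change that was 1.14 without MCAO 5, and it did not pass the test in hypidone against MCAO (-1.12 ± 0.43, adjusted p = 0.0965). The other 4 genes of the class were not called: Ccnd1 and Ccnd3, which encode cyclins D1 and D3, Cdk4 and the inhibitor gene Cdkn2c had log2 fold changes of -0.45 to 1.36 in MCAO against control and -1.07 to 0.35 in hypidone against MCAO. Strand use in counting is not given, and Ccnd1 shares 23.4% of its exonic bases with LTO1 and Cdk4 19.7% with Tspan31, so both counts are uncertain.

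Of the genes that start S phase, Cdk2 was called. Cdk2, the kinase bound by cyclins E and A, was at 1.81, 2.21 and 1.93 CPM in hypidone, 2.30, 9.04 and 6.26 CPM in MCAO and 1.63, 2.17 and 1.62 CPM in control. MCAO 5 and 6 were far above both other groups, and MCAO 4 exceeded them by a small margin. Both differences passed the test, with adjusted p = 0.0314 in MCAO against control and 0.0458 in hypidone against MCAO, and without MCAO 5 they were 1.26 and -1.12. The cyclin E genes Ccne1 and Ccne2 and the transcription factor gene E2f1 were not called, with log2 fold changes of -0.22 to 0.65 in MCAO against control. E2f1, picked after its values were seen, was at 17.4, 18.8 and 23.0 CPM in hypidone, 21.4, 11.0 and 17.9 CPM in MCAO and 21.9, 5.54 and 21.3 CPM in control. It was lowest in MCAO 5 and control 5 of their groups, and Ccne1 had its lowest values in the same libraries (9.59 CPM in MCAO 5 and 14.3 CPM in control 5).

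The MCM helicase genes had a median log2 fold change of 0.46 in MCAO against control and of -0.59 in hypidone against MCAO, and Mcm7 was called. Without MCAO 5 the medians were -0.20 and 0.018. Mcm7 was at 12.4, 10.0 and 9.72 CPM in hypidone, 15.2, 20.3 and 15.8 CPM in MCAO and 8.98, 12.2 and 9.01 CPM in control. No MCAO library overlapped the other groups, and MCAO 4 and 6 were nearly equal. Its rise in MCAO had an adjusted p of 0.0284 and its fall with hypidone 0.0484. Mcm4 was at 10.2, 9.68 and 9.34 CPM in hypidone, 15.4, 16.1 and 13.3 CPM in MCAO and 10.4, 11.8 and 10.0 CPM in control. The MCAO libraries lay close together and above all others, with no library standing apart. It was called lower in hypidone than in MCAO (adjusted p = 0.0271) and narrowly missed the threshold in MCAO against control (0.47 ± 0.15, adjusted p = 0.0552). Mcm2, Mcm3, Mcm5 and Mcm6 were not called, and their log2 fold changes lay between -0.05 and 0.85 in MCAO against control and between -0.84 and 0.10 in hypidone against MCAO. Mcm6, picked after its values were seen, was at 6.91, 8.71 and 6.27 CPM in hypidone, 9.38, 21.1 and 8.57 CPM in MCAO and 6.07, 22.6 and 6.25 CPM in control, with MCAO 5 and control 5 far above the rest. Mcm7 shares 7.25% of its exonic bases with Ap4m1.

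The 4 genes of DNA synthesis had positive log2 fold changes in MCAO against control, with a median of 0.68 (0.25 without MCAO 5), and none was called. Rrm2, the regulated subunit of ribonucleotide reductase, was at 1.18, 2.10 and 0.879 CPM in hypidone, 1.08, 14.4 and 6.18 CPM in MCAO and 0.926, 1.98 and 1.08 CPM in control. MCAO 5 and 6 were above every other library, and MCAO 4 was not. Its log2 fold change was 2.43 ± 0.80 in MCAO against control (adjusted p = 0.0582) and -2.38 ± 0.79 in hypidone against MCAO (adjusted p = 0.0685). Without MCAO 4 both passed, at adjusted p = 0.00652 and 0.00817, while without MCAO 5 they were 1.46 (adjusted p = 0.167) and -1.41 (adjusted p = 0.185). Pcna and Rrm1, the large reductase subunit, had small log2 fold changes of 0.40 ± 0.13 and 0.40 ± 0.16 in MCAO against control (adjusted p = 0.0585 and 0.104), with every MCAO library above every library of the other groups. Both were highest in MCAO 5, and without it the changes were 0.28 (adjusted p = 0.0886) and 0.23 (adjusted p = 0.195). Tyms, which makes thymidylate, was at 0.626, 4.27 and 0.851 CPM in MCAO and had a log2 fold change of 0.96 ± 0.75, whose sign turned without MCAO 5.

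**Figure D4:**
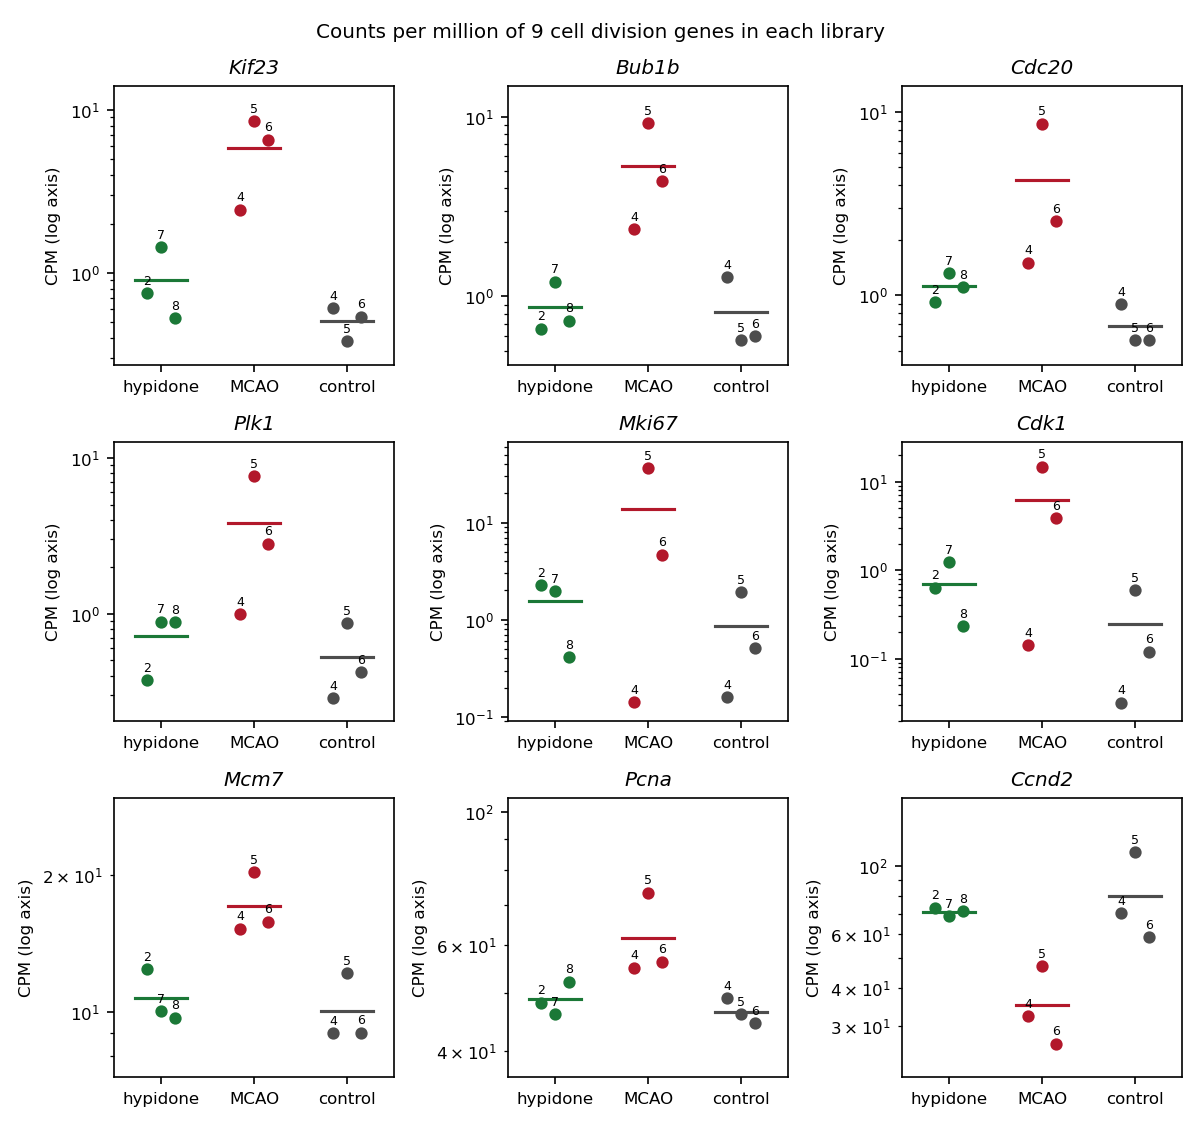
CPM of 9 cell division genes in each library on log axes, with 1 point per library marked by its title number and a line at the mean of each group (hypidone, MCAO, control; n = 3 each). Kif23 and Bub1b are above both other groups in all 3 MCAO libraries and Ccnd2 is below them, while Mki67 and Cdk1 span from 0.142 CPM in MCAO 4 to 36.5 and 14.7 CPM in MCAO 5.

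Of the genes that drive entry into mitosis, Ccna2 and Foxm1 were called in MCAO against control. The 5 genes of the class had a median log2 fold change of 3.16 there and of -2.51 in hypidone against MCAO, and without MCAO 5 these were 1.77 and -1.53. Ccna2, which encodes cyclin A2, was at 1.21, 1.71 and 0.908 CPM in hypidone, 1.11, 15.2 and 5.55 CPM in MCAO and 0.894, 1.60 and 0.451 CPM in control. MCAO 4 lay among the hypidone and control libraries. Its adjusted p was 0.0420 in MCAO against control, where the log2 fold change was 1.77 without MCAO 5, and 0.0669 in hypidone against MCAO (-2.51 ± 0.83). Foxm1, a transcription factor that activates genes of mitosis, was at 1.24, 1.24 and 0.791 CPM in hypidone, 1.45, 10.0 and 5.71 CPM in MCAO and 0.958, 1.66 and 0.962 CPM in control. MCAO 4 was above the hypidone libraries and below control 5. It passed the test with adjusted p = 0.0345 in MCAO against control and 0.0335 in hypidone against MCAO, and without MCAO 5 the changes were 1.60 and -1.73. The mitotic kinase gene Cdk1 and the cyclin genes Ccnb1 and Ccnb2 had larger log2 fold changes, of 4.60 ± 1.47, 4.16 ± 1.39 and 3.16 ± 1.26 in MCAO against control, and none passed the test (adjusted p between 0.0549 and 0.104). Cdk1, picked after its values were seen, was at 0.633, 1.24 and 0.234 CPM in hypidone, 0.142, 14.7 and 3.90 CPM in MCAO and 0.0319, 0.597 and 0.120 CPM in control. Without MCAO 4 its adjusted p was 0.0101 in MCAO against control and 0.0274 in hypidone against MCAO, while without MCAO 5 the log2 fold changes were 2.98 (adjusted p = 0.139) and -1.54 (adjusted p = 0.412). Ccna2 shares 12.5% of its exonic bases with Exosc9, which leaves its count uncertain.

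Both genes of mitotic chromosome proteins had large differences that missed the threshold. Mki67, which encodes the proliferation marker Ki-67 (chromosome 7, 135689784 to 135716361), was at 2.27, 1.98 and 0.410 CPM in hypidone, 0.142, 36.5 and 4.67 CPM in MCAO and 0.160, 1.93 and 0.511 CPM in control. MCAO 4 was the lowest of all 9 libraries and MCAO 5 the highest, although MCAO 4 and control 4 both had 5 counts. The log2 fold change was 3.97 ± 1.56 in MCAO against control (adjusted p = 0.0987) and -3.14 ± 1.49 in hypidone against MCAO (adjusted p = 0.167). Without MCAO 4 the adjusted p was 0.0205 in the first and 0.0394 in the second, while leaving out MCAO 5 gave log2 fold changes of 1.47 and -0.65. Top2a, a topoisomerase that untangles sister chromatids, had a log2 fold change of 3.12 ± 1.28 in MCAO against control (adjusted p = 0.111), or 1.12 without MCAO 5 (adjusted p = 0.479), and was likewise under every control in MCAO 4 (0.313 CPM). Its counts were 11 in MCAO 4 and 14 in control 4.

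Of the mitotic kinases and their partners, Bub1b, Cdc20 and Plk1 were called. The 8 genes of the class had a median log2 fold change of 2.77 in MCAO against control and of -2.48 in hypidone against MCAO, and without MCAO 5 these were 1.44 and -0.82. Bub1b, which encodes the spindle checkpoint protein BubR1 (chromosome 2, 118598211 to 118641591), was at 0.662, 1.21 and 0.732 CPM in hypidone, 2.36, 9.20 and 4.37 CPM in MCAO and 1.28, 0.570 and 0.601 CPM in control. All MCAO libraries lay above all others. Adjusted p was 0.0151 in MCAO against control and 0.0194 in hypidone against MCAO. Without MCAO 5 both changes held, at 2.06 and -1.97 with adjusted p = 0.0218 and 0.0273. Cdc20, the activator of the anaphase-promoting complex (chromosome 4, 118432901 to 118437352), was at 0.921, 1.33 and 1.11 CPM in hypidone, 1.51, 8.67 and 2.55 CPM in MCAO and 0.894, 0.570 and 0.571 CPM in control. The groups did not overlap in either comparison. The adjusted p was 0.0223 in MCAO against control and 0.0616 in hypidone against MCAO (-1.92 ± 0.61), and the first change was 1.60 without MCAO 5. Plk1, a kinase needed at many steps of mitosis, was at 0.374, 0.885 and 0.879 CPM in hypidone, 0.995, 7.63 and 2.80 CPM in MCAO and 0.287, 0.869 and 0.421 CPM in control. MCAO 4 exceeded the other groups by a small margin. The adjusted p was 0.0331 in MCAO against control, where the change was 1.85 without MCAO 5, and 0.0580 in hypidone against MCAO (-2.41 ± 0.76). The checkpoint kinase gene Bub1, the Aurora kinase genes Aurka and Aurkb, the ubiquitin-conjugating enzyme gene Ube2c and the survivin gene Birc5 were not called. Their log2 fold changes ran from 1.38 ± 0.56 (Aurka) to 3.90 ± 1.36 (Aurkb) in MCAO against control, and Bub1 had no count in MCAO 4. Without MCAO 5 these 5 genes were between 0.72 (Aurka) and 1.45 (Aurkb), with adjusted p between 0.316 and 0.457. Bub1 and Aurkb would not have passed the filter on low counts without the MCAO libraries. Ube2c shares 22.8% of its exonic bases with Tnnc2 on the other strand and Plk1 7.09% with Gm44985, so reads of the pairs may be mixed.

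Kif23 was the 1 gene called among 7 of the spindle and kinetochore, whose median log2 fold change was 2.52 in MCAO against control and -1.78 in hypidone against MCAO. Without MCAO 5 these medians were 0.95 and -0.54, with 6 of the 7 positive in MCAO against control and 3 of the 7 positive in hypidone against MCAO. Kif23 encodes a kinesin of the central spindle that is needed for cytokinesis (chromosome 9, 61915905 to 61946774), and it was at 0.749, 1.45 and 0.527 CPM in hypidone, 2.45, 8.57 and 6.56 CPM in MCAO and 0.607, 0.380 and 0.541 CPM in control. All MCAO libraries lay above all others, by a factor that was smallest for MCAO 4. The adjusted p was 0.00674 in MCAO against control and 0.0157 in hypidone against MCAO. Of the 10 calls in MCAO against control, that of Kif23 was the only one kept in each of the 9 fits that left out 1 library (adjusted p between 0.0020 and 0.0324). Its fall with hypidone was lost without MCAO 6, hypidone 2 or hypidone 8 (adjusted p between 0.0538 and 0.0700). Cenpe, Cenpf, Kif11, Kif20a, Tpx2 and Prc1, which encode kinetochore proteins, spindle motors and microtubule-binding proteins, were not called, with log2 fold changes of 1.28 ± 0.90 (Cenpe) to 3.21 ± 1.36 (Kif20a) in MCAO against control and -2.74 ± 1.23 (Prc1) to -1.24 ± 0.90 (Cenpe) in hypidone against MCAO. Tpx2, an activator of Aurora A, came nearest in MCAO against control (1.93 ± 0.60, adjusted p = 0.0507), and was at 0.96 without MCAO 5 (adjusted p = 0.128). Kif20a shares 29.3% of its exonic bases with Cdc23 and Prc1 11.1% with Rccd1, so their counts are uncertain.

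The remaining calls in MCAO against control were lost as follows. Bub1b was lost without control 6 (adjusted p = 0.0641), Cdc20 without any 1 control library (between 0.0508 and 0.0819), and Mcm7 without control 4, control 6, MCAO 6 or hypidone 7 (between 0.0528 and 0.102). Plk1 was lost without control 4, control 6, MCAO 5, MCAO 6, hypidone 7 or hypidone 8 (between 0.0557 and 0.109). Cdk2, Cdk6, Foxm1 and Ccna2 were lost when any 1 library other than control 5 and MCAO 4 was left out (between 0.0513 and 0.130). In hypidone against MCAO, Bub1b and Mcm4 were lost without MCAO 6 or any hypidone library (between 0.0527 and 0.110), and Cdk2, Foxm1 and Mcm7 when any 1 library other than control 5 and MCAO 4 was left out (between 0.0519 and 0.162).

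Genes outside the set that act in the same pathways were read in 4 further lists. Of 51 other mitosis genes, 46 passed the filter on low counts. Of these, 12 were called higher and 0 lower in MCAO against control, with a median log2 fold change of 1.65, and 8 were called lower and 0 higher in hypidone against MCAO, with a median of -1.46. Over all tested genes, 10.6% were called higher and 9.81% lower in MCAO against control, with a median of 0.01, and 8.28% lower and 8.23% higher in hypidone against MCAO, with a median of -0.04. Without the MCAO libraries 37 of the 46 would have passed the filter, and the other 9 were tested through the group in which they were high. Of the 37, 11 were called higher in MCAO against control (median 1.496) and 8 lower in hypidone against MCAO (median -1.25). The centromeric histone gene Cenpa was at 2.25, 2.07 and 1.03 CPM in hypidone, 5.97, 9.40 and 5.63 CPM in MCAO and 1.85, 1.58 and 2.28 CPM in control, even across MCAO and without overlap. Its log2 fold changes were 1.88 ± 0.37 in MCAO against control and -1.97 ± 0.37 in hypidone against MCAO. Hmgb2, which encodes a chromatin protein, changed by 1.65 ± 0.37 and -1.73 ± 0.37, and Ckap2, which encodes a spindle-associated protein, by 3.20 ± 0.78 and -3.02 ± 0.77. Asf1b, a histone chaperone gene, rose by 2.47 ± 0.56 in MCAO against control, and Nusap1, which encodes a microtubule-binding protein, fell by 3.40 ± 0.83 in hypidone against MCAO. Left out 1 at a time, the libraries moved the higher count in MCAO against control between 1 and 33 and the lower count in hypidone against MCAO between 1 and 29. In those fits the shares of all tested genes ran from 3.19% to 15.7% called higher in MCAO against control and from 1.55% to 14.1% called lower in hypidone against MCAO.

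Replication genes outside the set had 9 of 32 called higher and 0 lower in MCAO against control, against 10.6% and 9.81% of all tested genes, and 5 lower and 0 higher in hypidone against MCAO, against 8.28% and 8.23%. Their median log2 fold changes were 0.74 and -0.64, and 31 of the 32 would have passed the filter without the MCAO libraries. Cdt1, which loads the helicase onto origins, was at 1.73, 1.80 and 1.29 CPM in hypidone, 5.06, 6.90 and 6.43 CPM in MCAO and 1.31, 1.09 and 1.71 CPM in control. The 3 MCAO libraries were close together and well above the rest, and the log2 fold changes were 2.16 ± 0.30 and -1.93 ± 0.30. Chaf1a, a subunit of the chromatin assembly factor that follows the fork, changed by 1.19 ± 0.21 and -1.03 ± 0.21, and Fen1, the flap endonuclease gene, by 0.96 ± 0.18 and -0.90 ± 0.18. Dbf4, which activates the kinase that fires origins, rose by 2.54 ± 0.49 in MCAO against control, and Pole, the leading-strand polymerase gene, fell by 1.81 ± 0.41 in hypidone against MCAO. The higher count in MCAO against control moved between 4 and 11 with 1 library left out, and the lower count in hypidone against MCAO between 1 and 10.

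Of 23 tested genes in a list of brakes on the cycle and genes grouped with them, 5 were called higher and 2 lower in MCAO against control. The median log2 fold change was 0.42 there. In hypidone against MCAO 4 were called lower and 1 higher, with a median of -0.23. The list was not limited to inhibitors: it holds Lin37, among those lower in MCAO, and Lin9, among those lower in hypidone. Of all tested genes 10.6% were called higher and 9.81% lower in the first comparison and 8.28% lower and 8.23% higher in the second. Cdkn1a, which encodes the CDK inhibitor p21, was at 22.8, 24.6 and 22.7 CPM in hypidone, 170, 96.8 and 160 CPM in MCAO and 18.05, 7.85 and 21.9 CPM in control. It was high in MCAO 4, where the mitotic genes were near the controls, and lower in MCAO 5, where they were highest. In the remaining MCAO library Cdkn1a was nearly as high as in MCAO 4, while the summed CPM of the mitotic genes was 67.9, above every control. A link between Cdkn1a and the mitotic genes was not tested. Log2 fold changes of Cdkn1a were 3.16 ± 0.37 in MCAO against control and -2.60 ± 0.36 in hypidone against MCAO. Cdkn1c, the p57 gene, rose by 1.25 ± 0.27 in MCAO against control, and Btg1, an antiproliferative gene, changed by 0.89 ± 0.24 and -0.999 ± 0.24. E2f6, which encodes a repressor of the E2F family, fell by 0.82 ± 0.17 in MCAO against control and rose by 0.86 ± 0.17 in hypidone against MCAO, and Gadd45g, a stress gene that restrains the cycle, fell by 1.08 ± 0.28 in hypidone against MCAO. With 1 library left out the counts moved between 1 and 8 higher in MCAO against control and between 1 and 5 lower in hypidone against MCAO.

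Genes of the E2F, MYB, MYC and CDC25 families, a list that holds the repressors E2f7 and E2f8 beside activators, had 6 of 13 called higher and 1 lower in MCAO against control and 3 lower and 1 higher in hypidone against MCAO. Of all tested genes 10.6% and 9.81% were called in the first comparison and 8.28% and 8.23% in the second. Without the MCAO libraries E2f7, Mybl2 and Cdc25c would not have passed the filter, and of the other 10 genes 4 were called higher in MCAO against control. Mycn was the 1 that fell in MCAO: it was at 8.06, 7.41 and 7.70 CPM in hypidone, 2.22, 0.964 and 1.46 CPM in MCAO and 9.17, 6.71 and 7.60 CPM in control. No MCAO library reached the others, and the log2 fold changes were -2.34 ± 0.31 in MCAO against control and 2.32 ± 0.31 in hypidone against MCAO. Tfdp1, a partner of the E2F proteins, changed by 0.58 ± 0.11 and -0.55 ± 0.11. E2f7, which encodes an atypical E2F that represses transcription, and Mybl2, which encodes B-Myb, rose by 2.62 ± 0.55 and 2.63 ± 0.65 in MCAO against control, with at most 1.407 CPM in any library, and both were tested through the MCAO group in which they were high. Myc and Tfdp2 fell by 1.39 ± 0.36 and 0.56 ± 0.16 in hypidone against MCAO. With 1 library left out, the higher count in MCAO against control moved between 1 and 5 and the lower count in hypidone against MCAO between 0 and 6. In hypidone against control no gene of these 4 lists was called. Cdkn1a, Mycn, Cdt1 and Cenpa kept their calls in both comparisons in each of the 9 fits that left out 1 library.

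Of the other genes named from these lists, E2f6, Tfdp1, Chaf1a, Fen1 and Dbf4 kept their calls in MCAO against control in each such fit. Asf1b, Ckap2, Hmgb2 and E2f7 lost theirs without control 4 or control 6 (adjusted p between 0.0543 and 0.0836), Mybl2 also without MCAO 6 (between 0.0665 and 0.0878), Cdkn1c without control 6 (0.0653), and Btg1 when any 1 library other than control 5 and MCAO 4 was left out (between 0.0519 and 0.113). In hypidone against MCAO, Btg1, Fen1, Gadd45g, Nusap1, Pole and Tfdp1 were lost without MCAO 6 or any hypidone library (between 0.0553 and 0.110), and Myc and Tfdp2 also without control 6 (between 0.0520 and 0.150). Ckap2 was lost without MCAO 5, MCAO 6 or any hypidone library (between 0.0545 and 0.117). Hmgb2 was lost without any hypidone library (between 0.0673 and 0.0735), Chaf1a without MCAO 6, hypidone 7 or hypidone 8 (between 0.0576 and 0.0690), and E2f6 without hypidone 7 or hypidone 8 (0.0577 and 0.0581).

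The authors' deposited table, which covers MCAO against control and hypidone (YL) against MCAO, called 18 members up where edgeR's quasi-likelihood test called 9 higher. In the authors' deposited table, 18 of the 42 genes were up and 1 down at a q under 0.05 in MCAO against control, where 10.1% of its 16225 genes with a q were up and 8.18% down. Of these members, 17 and 1 passed a 2-fold change. In the authors' deposited table, 14 were down and 1 up in hypidone against MCAO, where 12.3% of its genes were down and 11.0% up, with 12 and 1 of the members changed at least 2-fold. Kif23 was 11.5-fold up with q = 1.54e-07 in MCAO against control and at 0.155 of its MCAO level with q = 0.000112 in hypidone in the authors' deposited table. Cdk1, which was not called by edgeR's quasi-likelihood test, was 24.6-fold up with q = 0.00478 in the authors' deposited table.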

How the data were processed

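Counts per gene symbol in 9 mouse brain libraries were deposited by the authors as raw whole numbers, and all columns matched a sample by title. FPKM values, scaled by gene length and library total, were deposited by the authors as well. For MCAO against control and YL against MCAO, the authors deposited a fold change (a linear ratio) and a q-value for every gene. Genome build mm10 and DESeq2 appear in the submitters' processing notes, with neither role nor version; aligner, counter and strand use were not given in the sources used here. Libraries were prepared from TRIzol-extracted total RNA with a VAHTS Universal V6 kit, per the labels.

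Genes passing edgeR's filterByExpr (14756 of 18138) entered 1 quasi-likelihood fit of all 9 libraries with TMM scaling (edgeR 4.0.16, R 4.3.3, 6 residual degrees of freedom). F tests were two-sided with Benjamini-Hochberg adjustment over all tested genes at 0.05, and SE is the log2 fold change over the root of F. The fit was tested on simulated counts with the same spread in every group and changes planted only in genes averaging over 1 CPM. That run does not cover lower genes or groups of unequal spread. Levels relative to control use log2(CPM + 0.5). The division genes, the other lists, the motifs and the tests were chosen with earlier results of these data known. Values per library are given for called members, for the member with the lowest adjusted p in classes without a call, and, where stated, for genes picked after their values were seen. From each of the other 4 lists, the 4 called genes with the lowest adjusted p are named in MCAO against control and in hypidone against MCAO. Alternatives were DESeq2 1.42.0 and its size factors, limma 3.58.1 voom with quality weights, limma on log2(FPKM + 1), other filters, the 2 groups alone, a replicate block, and leaving out each library. Positions come from GENCODE M21 (mm10). No library of a group matched another within sampling noise (lowest chi-square per degree of freedom 15.1). Depth was 32075682 to 37325027 counts per library.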

Additional observations from a re-analysis of the deposited data

How the results depend on the processing

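Scaling by DESeq2 size factors and a filter at 1 CPM in 3 libraries kept the member counts within 1.5 times. Without a filter, 9 and 1 members were higher and lower in MCAO against control, against 7.76% and 7.41% of all 18138 genes. In hypidone against MCAO, the fit without a filter called 5.71% of those genes lower and 6.14% higher. In MCAO against control, members called higher and lower were 25 and 1 with DESeq2, 24 and 3 with limma voom and quality weights, 3 and 1 with limma on log2(FPKM + 1), and 1 and 0 with the 2 groups alone. In hypidone against MCAO, members called lower and higher were 16 and 1 with DESeq2, 18 and 2 with voom, 3 and 0 on log2(FPKM + 1), 3 and 1 with the 2 groups alone, and 4 and 1 without a filter. Hypidone against control gave 0 in every setting run. Leaving out each library moved MCAO against control between 1 and 27 higher and between 0 and 2 lower, and hypidone against MCAO between 0 and 23 lower and between 0 and 2 higher. Without MCAO 5 and control 5 together, an alternative added after seeing the data, the counts were 11 higher and 2 lower, and 5 lower and 2 higher. Without MCAO 5, 7 of the 42 members had the opposite sign in MCAO against control and 10 in hypidone against MCAO, none of them called, and leaving out any other library turned the sign of at most 2. With 1 library left out, Cenpe ran from -0.52 (without MCAO 5) to 1.90 in MCAO against control. In hypidone against MCAO, Cenpe ran from -1.76 to 0.55, Kif11 from -1.78 to 0.41, Kif20a from -2.69 to 0.47 and Ccnb2 from -3.11 to 0.014, each highest without MCAO 5. Without MCAO 5 and control 5 they were 0.55, 0.41, 0.47 and 0.012. The cause was not tested. Among all tested genes, voom called 24.7% higher and 25.6% lower in MCAO against control and 25.2% lower and 26.5% higher in hypidone against MCAO, and log2(FPKM + 1) gave 8.67%, 8.81%, 7.54% and 8.07% in that order. Leaving out MCAO 5 and control 5 gave 15.7%, 15.2%, 16.0% and 16.3%.

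A replicate block by title number in MCAO against control called 0 and 0 members (0 of 14489 genes; Kif23 adjusted p = 0.0795). Same-numbered control and MCAO libraries correlated at 0.118, 0.123 and -0.042 in their deviations from group means. Differently numbered ones correlated at -0.151 to 0.124. These values do not settle whether the numbers pair samples, and the main fit did not pair them. Many mitotic genes had few counts, and all 22 averaged under 1 FPKM in hypidone and in control. Bub1 had no count in MCAO 4, although that library had the highest total. The widest SE in MCAO against control, 1.56, was that of Mki67, which had 5, 1400 and 170 counts in MCAO.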
